A study of Arabidopsis halleri and Arabidopsis lyrata subsp. petraea with 24 samples.

Results

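Roots were compared with leaves in Arabidopsis lyrata subsp. petraea (A. petraea), a relative of the zinc-accumulating A. halleri, on 12 of the 24 Affymetrix ATH1 arrays of the series. The organ, species and zinc label of each array used here were inferred and are not the printed ones; they were selected on the levels of organ marker genes. Each array title prints a serial number, and sorting these numbers as text and giving the array in each place the group printed for that place makes the organs match marker genes on 23 of 24 arrays, whereas the printed labels match on 9 of 24. By this text order, A. petraea roots were serials 23, 24 and 3 (25 µM zinc) and 20, 21 and 22 (control), and A. petraea leaves were serials 7, 8 and 9 (25 µM zinc) and 4, 5 and 6 (control). The titles print none of these 12 arrays in its inferred group. They print 7 of them as A. halleri and 5 as A. petraea, and 8 with the other organ. The labels name no mutation or transgene, and all plants grew in a growth room on full mineral medium, with whole root systems or rosette leaves taken. Separate plants for each array are not stated in the labels, and p-values here therefore reflect only the spread from array to array, which may be technical.

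Because the order was adopted for its match with organ markers, the difference between roots and leaves is a description here and carries no test. Whether that difference varied with zinc or with species was tested, and both tests hold only if the inferred order does.

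Leaves of a rosette plant carry out photosynthesis: nuclear and chloroplast genes together supply the photosystems, the ATP synthase and the carbon-fixing Calvin cycle. Roots take up water and ions through root hairs, seal their inner tissues with suberin and lignin, and in Arabidopsis relatives store defensive beta-glucosidases in endoplasmic reticulum bodies (ER bodies). Genes for these functions are therefore commonly used to tell the organs apart.

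The leaf markers behind the rule were RCA, which activates Rubisco, PSAE-1, a photosystem I subunit, and the Calvin cycle enzymes PRK and SBPASE. The root markers were PYK10, the main ER body beta-glucosidase, and EXPA7 and EXPA18, expansins of growing root hairs. Leaf marker mean minus root marker mean, on the log2(signal + 16) scale used throughout, was -3.58, -2.09 and -0.39 on root arrays 20, 21 and 22, and -3.89, 3.43 and -1.37 on root arrays 23, 24 and 3. On leaf arrays 4 to 9 it was 4.57, 3.24, 5.64, 4.97, 5.20 and 5.27. Array 24 alone lay on the other organ's side, and array 22 lay nearest to zero among those on their own side. Array 24 had leaf markers at 10.62 and root markers at 7.20, and leaf array 5 had 10.29 and 7.05, so that both carried raised means of both sets. On array 5 the raised root mean came mainly from PYK10, at 9.13. EXPA18 stood at 6.62, against at most 6.39 on the other leaf arrays, and EXPA7 at 5.41, within their range of 5.35 to 5.98.

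Single markers were less even. PYK10 had a lowest, median and highest level of 9.14, 10.86 and 11.65 in roots, against 4.86, 5.58 and 9.13 in leaves. EXPA7 had 4.68, 6.11 and 8.61 in roots and 5.35, 5.75 and 5.98 in leaves, and EXPA18 had 5.64, 6.60 and 8.45 in roots and 4.98, 5.93 and 6.62 in leaves. Only PYK10 kept the organs apart, and both expansins overlapped also without arrays 24 and 5. The root label therefore rests on genes other than these root hair markers.

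**Figure D1:**
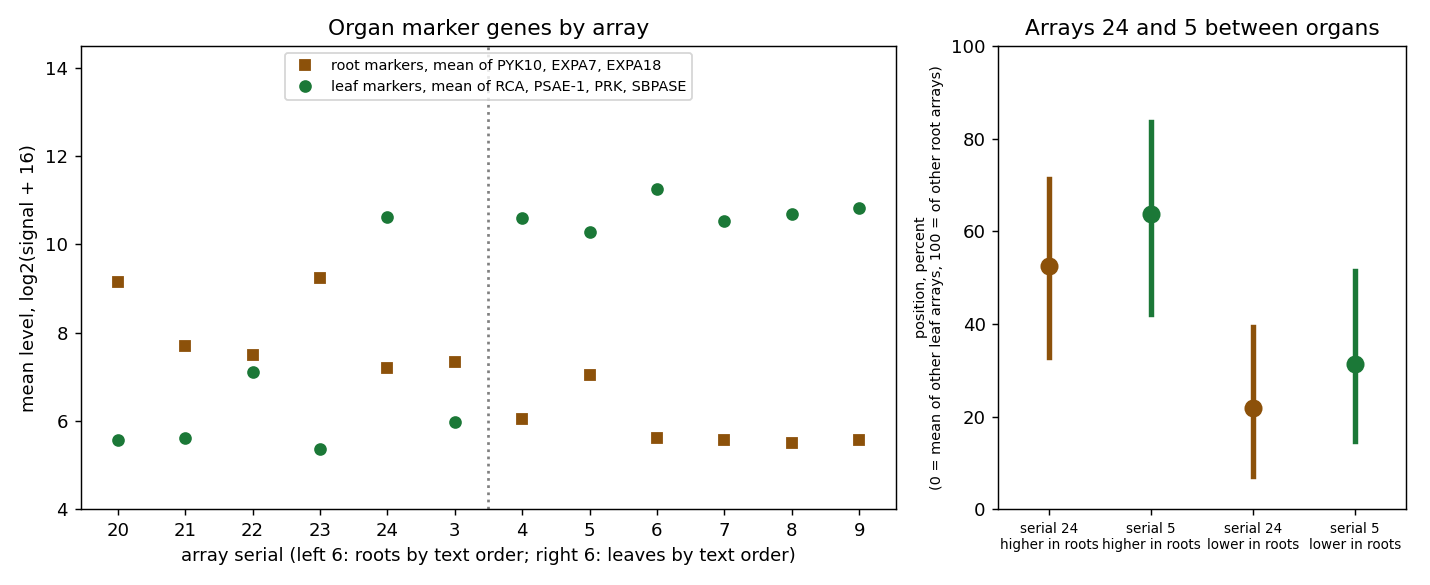
Left, the mean level of the root markers (squares) and the leaf markers (circles) on each array, with the 6 root arrays left of the dotted line and the 6 leaf arrays right of it. Right, for probe sets that kept the organs apart on the other 10 arrays, the median (point) and middle 50% (bar) of where arrays 24 and 5 lay between the leaf mean (0%) and the root mean (100%); both arrays lie between the organs, with medians of 21.8% to 63.8%.

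Across the 17107 probe sets tested, root arrays other than 24 correlated with each other at r = 0.71 to 0.91 (10 pairs), leaf arrays other than 5 at 0.80 to 0.95 (10 pairs), and the organs with each other at 0.50 to 0.62 (25 pairs). Array 24 correlated with the other root arrays at 0.69 to 0.72 and with leaf arrays other than 5 at 0.81 to 0.88. Array 5 correlated at 0.71 to 0.75 with root arrays and at 0.77 to 0.84 with the other leaf arrays. The 2 arrays were each other's nearest, at r = 0.92. Of the 24 arrays, 24 had a nearest array of the same text-order species and 22 of the same text-order organ, while 7 had one of the same printed organ and 13 of the same printed species. For the zinc label, 1 of 24 had a nearest array of the same text-order level, while 21 had one of the same text-order replicate number. Nearest arrays thus followed that number and not the zinc level, and they give no check of the zinc label. Array 11 takes its number from printed serial 3, whose title prints Rep1 and was read as replicate 3. Arrays 11 and 14, each other's nearest, share a number only by that reading. These correlations share the array scale and the probe sets and are given without a test.

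Arrays 24 and 5 lay between the organs on most probe sets that kept the other 10 arrays apart. Among the 1205 probe sets that were at least 2-fold higher in roots and did not overlap between organs on the other 10 arrays, array 24 lay at a median of 52.6% of the way from the leaf mean to the root mean, and array 5 at 63.8%. Among the 1306 that were lower in roots, array 24 lay at 21.8% and array 5 at 31.4%. Between 83.3% and 90.8% of these values lay between the 2 organ means. Array 24, labelled roots by the text order, was thus the more leaf-like of the pair in both sets of probe sets, and array 5, labelled leaves, the more root-like. Results are given with and without both arrays, and how these arrays came to hold both signals was not tested.

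Over all 12 arrays, 193 probe sets (1.13%) were higher in roots and 165 (0.965%) lower, 358 in all (2.09%), counting those that differed at least 2-fold with no overlap between the 6 root and the 6 leaf arrays. Without arrays 24 and 5 the counts were 1205 (7.04%) and 1306 (7.63%), 2511 in all (14.7%). Since this contrast chose the labels, nothing is read from these shares. Counts of list genes below are to be read beside them. The median of all probe sets was a difference (roots minus leaves) of 0.19 over 12 arrays and 0.25 over 10, so a gene at 0 lay slightly below the middle of the array. Fewer cells of a type and less transcript per cell cannot be told apart in whole organs.

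The genes highest in roots with no overlap over 12 arrays included ER body, wall and defence proteins. PYK10, with the levels above, was 24.3-fold higher in roots, a log2 difference of 4.60 ± 0.54 (SE from limma, as in all differences here, n = 6 arrays an organ), and 5.45 ± 0.28 without arrays 24 and 5. FACT, which joins caffeic acid to fatty alcohols in suberin-associated waxes, had 7.55, 8.48 and 9.34 in roots against 5.64, 6.14 and 7.45 in leaves, a difference of 2.21 ± 0.31. AT4G30320, related to the pathogenesis-related protein PR-1, had 7.93, 8.19 and 8.57 in roots and 4.19, 4.59 and 7.86 in leaves, a difference of 3.14 ± 0.47. Its 6 root values spanned less than 1 log2 unit, and the single high leaf value was array 5.

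AT4G16260, of the beta-1,3-glucanase family, differed by 2.75 ± 0.40, and ARPN, which encodes plantacyanin, a small copper protein, by 2.4 ± 0.35. The other genes highest in roots by this rule were AT5G10580 at 4.17 ± 0.54, AT1G49310 at 3.91 ± 0.62, AT3G62040 at 3.19 ± 0.45, AT2G44010 at 2.69 ± 0.34, AT3G59480 at 2.28 ± 0.31, AT4G14060 at 2.11 ± 0.33 and AT5G02580 at 2.1 ± 0.40. In these 12 genes array 5 was the highest leaf array every time.

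Among genes lower in roots with no overlap over 12 arrays, several act in the chloroplast. PORB, which makes chlorophyllide in the light, had 5.02, 5.19 and 7.74 in roots and 7.87, 9.06 and 10.61 in leaves, a difference of -3.59 ± 0.52. TAPX, the ascorbate peroxidase of the thylakoid membrane, had 4.76, 5.59 and 8.31 in roots and 8.44, 8.93 and 10.00 in leaves, a difference of -3.10 ± 0.49. The plastid gene psaJ, a photosystem I subunit, had 8.43, 9.23 and 11.65 in roots and 11.74, 12.18 and 12.85 in leaves, a difference of -2.77 ± 0.48. In all 3 genes the highest root value was array 24.

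AT1G54020, of the GDSL lipase family, was lower in roots by a difference of -4.47 ± 0.62, and AT1G68600, related to aluminium-activated malate transporters, by -2.84 ± 0.43. The rest of this group were AT1G49750 at -3.70 ± 0.57, AT1G27030 at -3.66 ± 0.60, AT5G11420 at -3.35 ± 0.43, AT5G35170 at -2.94 ± 0.43, AT4G30650 at -2.93 ± 0.45, AT2G39920 at -2.89 ± 0.47 and AT1G32220 at -2.88 ± 0.38. Whether a gene entered either group depended on arrays 24 and 5: for PYK10 the lowest root value (array 24) and the highest leaf value (array 5) were 0.0059 apart, and 4.53 apart without these arrays.

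**Figure D2:**
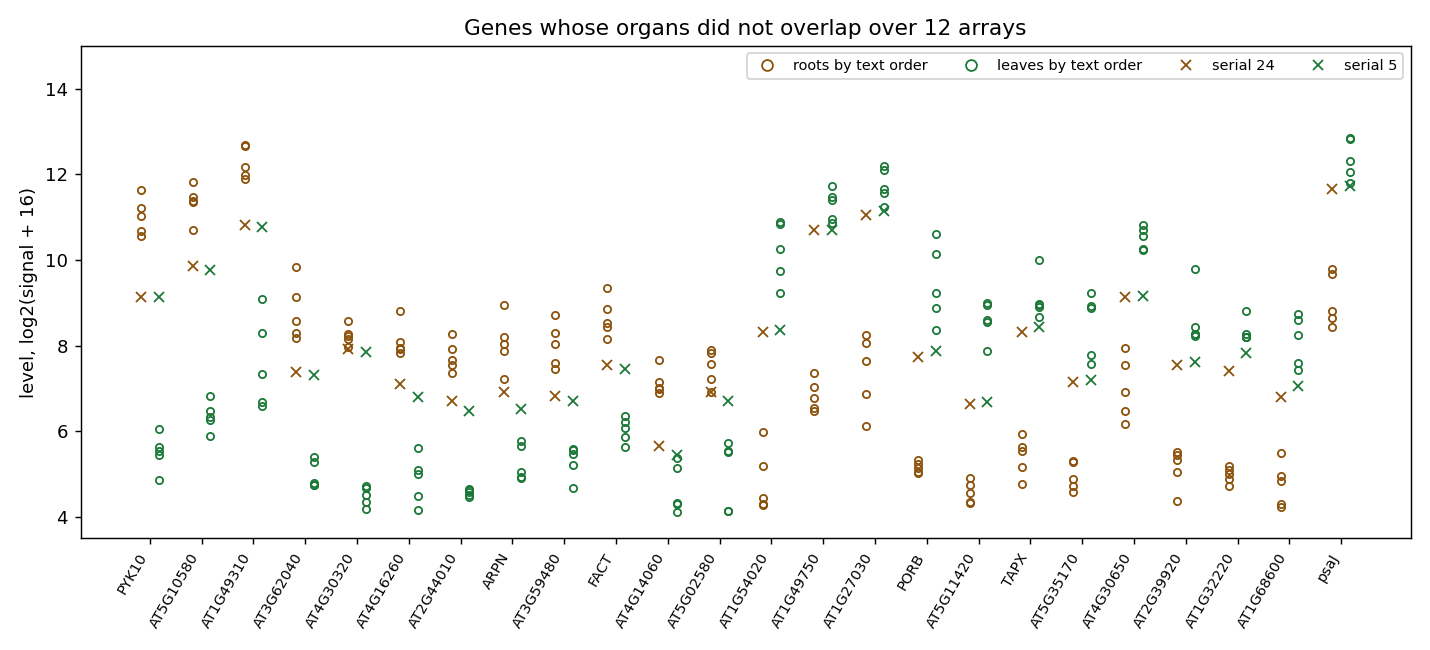
Level of the 12 genes highest and the 12 lowest in roots among genes whose organs did not overlap over 12 arrays, with root arrays left of leaf arrays for each gene and 1 symbol an array. Arrays 24 and 5 (crosses) lie close to each other in every gene, while the other 10 arrays leave a wide gap.

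Without arrays 24 and 5 the largest differences among named genes, a set taken after their values were seen, were greater. AT2G43610, of the chitinase family, had a lowest, median and highest level of 9.56, 11.67 and 12.60 in the 5 other root arrays, against 5.36, 5.74 and 6.17 in the 5 other leaf arrays, a difference of 5.66 ± 0.51. AT4G33720, a further PR-1 relative, had 8.01, 10.74 and 12.20 in roots and 4.35, 4.80 and 4.89 in leaves, a difference of 5.63 ± 0.72. AT1G26250, an extensin-like wall protein, differed by 5.21 ± 0.59 and AT3G19390, of the cysteine protease family, by 5.01 ± 0.34. In each of these genes the lowest root array was above 8 and the highest leaf array under 7.

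At the other end, AT1G72290, a Kunitz-type protease inhibitor relative, had 4.29, 4.47 and 5.04 in roots and 11.50, 12.23 and 13.45 in leaves, a difference of -7.81 ± 0.35 or 225-fold. This was the largest difference of any named gene. On array 24 it stood at 12.41 and on array 5 at 12.84, both at leaf level. AT1G29670, of the GDSL lipase family, differed by -6.28 ± 0.22, with 9.68 on array 24 and 9.37 on array 5. Arrays 24 and 5 thus carried the leaf protease inhibitor at full leaf level, and AT1G29670 below it.

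Photosystem and antenna genes were lower in roots on the arrays other than 24 and 5. Of 8 genes for photosystems, antenna and chloroplast ATP synthase, 0 kept the organs apart over 12 arrays and 8 were lower in roots without arrays 24 and 5, with a median difference of -4.69 over 12 arrays and -5.96 over 10. PSAN, a photosystem I subunit, had 5.47, 5.89 and 11.70 in roots and 10.68, 12.03 and 13.29 in leaves over 12 arrays. LHCB4.2, an antenna protein of photosystem II, had 4.17, 4.37 and 9.14 in roots and 8.67, 9.99 and 11.84 in leaves. In both genes the top root value was array 24 and the bottom leaf value array 5, and without them PSAN differed by -6.44 ± 0.33 and LHCB4.2 by -6.26 ± 0.34.

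LHCB4.1 differed by -6.16 ± 0.40 and PSBY, of photosystem II, by -6.11 ± 0.34 over the 10 arrays. LHCB4.3 of the same antenna family differed least, at -2.23 ± 0.29, with roots at 6.16 to 6.95 and leaves at 8.21 to 9.67. All 3 Calvin cycle genes tested were lower in roots without arrays 24 and 5, RCA by -5.82 ± 0.37, SBPASE by -4.43 ± 0.32 and PRK by -4.13 ± 0.47. RCA, PRK, SBPASE and PSAE-1 are the markers of the rule and add nothing to it. Of 3 photorespiration genes 2 were lower in roots, HPR, hydroxypyruvate reductase, by -4.94 ± 0.30 and AT1G11860 by -1.75 ± 0.33, and AT1G80380 overlapped at -0.06 ± 0.76.

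Chloroplast-encoded photosynthesis genes were lower in roots as well. All 33 with a probe set of their own were lower in roots over the 10 arrays, from -5.97 in psbA to -1.96 in petD with a median of -3.72, and 3 of them (psaJ, atpI and petL) kept the organs apart over all 12. The gene psbA, for the D1 protein of photosystem II, had 4.75, 6.55 and 12.18 in roots and 11.58, 12.00 and 13.32 in leaves, with array 24 again at the top of the roots. For rbcL, the large subunit of Rubisco, levels were 6.37, 7.44 and 9.08 in roots and 7.83, 9.65 and 10.78 in leaves, a 10-array difference of -2.64. Probe sets differ in how they bind, so these levels are not compared between genes.

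Of 4 chlorophyll synthesis genes, 3 were lower in roots with no overlap over all 12 arrays: PORB, CHLI2, a magnesium chelatase subunit, at -2.34 ± 0.32, and CHLM, a methyltransferase of the same path, at -1.58 ± 0.26. Of 18 thylakoid assembly and NDH complex genes, 2 were lower in roots over 12 arrays and 13 over 10, beside 0.965% and 7.63% of all probe sets. Their 10-array median was -2.26, with a highest value of 0.06 in LPA66. PSB27, which assists photosystem II repair, differed by -4.85 ± 0.27, PAM68, an assembly factor of the same complex, by -4.41 ± 0.30, HCF101, an iron-sulfur cluster carrier, by -3.75 ± 0.31 and LIL3:1, a light-harvesting-like protein, by -3.18 ± 0.22. All 4 starch genes were lower in roots over the 10 arrays, led by the branching enzyme SBE2.2 at -2.85 ± 0.35.

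Single genes of other leaf lists were lower in roots, and further members overlapped between organs. STOMAGEN, a peptide that promotes stomata, had 4.14, 4.2 and 4.75 in the 5 root arrays and 5.70, 7.81 and 8.40 in the 5 leaf arrays, a difference of -3.21 ± 0.38. FMA, the other stomatal gene tested, which sets guard cell fate, differed by -0.15 ± 0.24 and overlapped. Of 3 leaf polarity regulators YAB5 was lower in roots by -1.58 ± 0.31, while YAB3 at -0.69 ± 0.36 and PHV at 0.51 ± 0.42 overlapped. COR15B and COR15A, cold-regulated chloroplast proteins, differed by -3.48 ± 0.25 and -2.34 ± 0.31, and they were 2 of 6 cold and dehydrin genes that kept the organs apart over the 10 arrays. On array 5 STOMAGEN stood at 5.48, below every other leaf array.

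Defence chemistry went both ways. Of 5 glucosinolate genes, 3 were lower in roots over the 10 arrays, beside 7.63% of all probe sets. These were AOP3, which modifies the side chain, BCAT4, which starts chain elongation, at -1.89 ± 0.35, and the glucosyltransferase gene AT2G31790 at -1.94 ± 0.49. AOP3 had 5.14, 6.21 and 9.25 in roots and 11.53, 11.74 and 12.19 in leaves, a difference of -4.83 ± 0.72. Its root values spread over more than 4 log2 units, against less than 1 in leaves. Plant defensins split, with PDF2.1 higher in roots by 3.10 ± 0.58 and PDF1.2b lower by -3.95 ± 0.60.

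ER body and jacalin lectin genes split too. PYK10, NAI2, which builds ER bodies, and the lectins JAL34 and JAL33 were higher in roots over the 10 arrays, with NAI2 at 2.92 ± 0.31, JAL34 at 1.92 ± 0.27 and JAL33 at 1.36 ± 0.24. JAL23, another jacalin-related lectin, was lower in roots by -5.63 ± 0.27, with 4.37, 4.85 and 5.29 in roots and 9.84, 10.53 and 10.81 in leaves. These 5 were the genes apart among 7 tested, 4 higher and 1 lower, beside 7.04% and 7.63% of all probe sets. PYK10, counted among the 4, is a marker of the rule and adds nothing to it.

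Class III peroxidases, secreted enzymes that act on cell walls and peroxide, were higher in roots in every member that kept the organs apart at 2-fold or more. Of 33 tested, 1 was higher in roots and 0 lower over 12 arrays, beside 1.13% and 0.965% of all probe sets. Over 10 arrays 19 were higher and 0 lower, beside 7.04% and 7.63%. The median difference over 10 arrays was 1.44, against 0.25 for all probe sets. AT3G01190 had 8.14, 8.89 and 9.48 in roots and 4.13, 4.32 and 4.74 in leaves, a difference of 4.45 ± 0.27. AT5G19890 differed by 3.74 ± 0.36, AT4G33420 by 3.34 ± 0.32 and AT4G26010 by 3.27 ± 0.33. The family ran from -1.04 to 4.45, so single members were also on the leaf side without keeping the organs apart.

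Cell wall loosening genes were mixed: of 18 expansins and xyloglucan endotransglucosylases, 5 were higher in roots and 1 lower over the 10 arrays. XTH26 was higher by 2.16 ± 0.79, XTH18 by 1.76 ± 0.32 and the expansin-like EXLB1 by 1.58 ± 0.28, while EXPA8 was lower by -2.11 ± 0.35. The lowest root value of XTH26, 4.42, lay only just above its highest leaf value, 4.41. XTH32 had the largest absolute difference of the list, -2.19 ± 0.47, but overlapped between organs. Of 14 SWEET sugar transporters, 2 were higher, SWEET10 by 1.26 ± 0.27 and SWEET2, a root vacuole transporter in A. thaliana, by 1.16 ± 0.31. SWEET11, which loads sucrose towards the phloem in A. thaliana leaves, was lower by -2.03 ± 0.33 and SWEET1 by -1.04 ± 0.23. Glutathione transferases had 2 of 14 higher and 3 lower, with GSTU20 lowest at -2.75 ± 0.42, and beta-glucosidases other than PYK10 had 1 of 11 higher and 2 lower. Beside 7.04% higher and 7.63% lower among all probe sets, counts this small say little about these families.

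Single genes stood for other groups. GSO1, a receptor for the Casparian strip, differed by 0.98 ± 0.21 with no overlap over the 10 arrays, just under 2-fold. HCT, of lignin synthesis, was higher in roots by 1.09 ± 0.30 and the mitotic kinase AUR2 by 1.17 ± 0.29. On the clock list CCL was lower by -5.78 ± 0.34, and 2 other members differed by less than 0.1. The 3 reference genes overlapped between organs, at -0.44 ± 0.26 for AT2G28390, 0.26 ± 0.22 for AT4G34270 and 0.60 ± 0.52 for GAPC2, and of 11 ubiquitin conjugation genes UBC19 alone kept the organs apart at least 2-fold, at -1.10 ± 0.27.

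**Figure D3:**
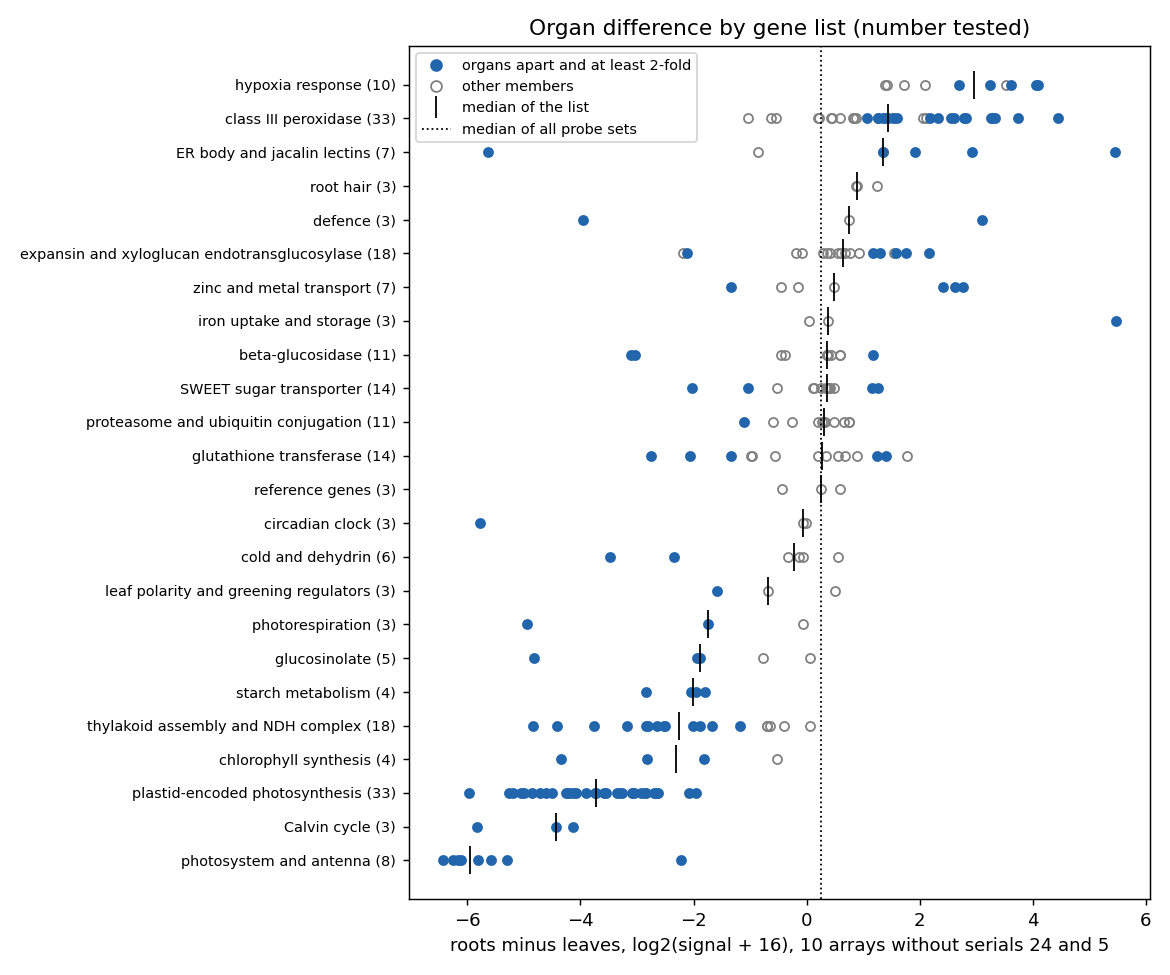
Difference between roots and leaves over the 10 arrays without serials 24 and 5, for each tested gene of each list with at least 3 such genes (log2 scale, roots minus leaves). Filled points kept the organs apart at 2-fold or more, bars are list medians and the dotted line is the median of all probe sets at 0.25; photosynthesis lists lie left and peroxidases and hypoxia genes right.

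Metal genes were few on the annotated array and 7 zinc and metal genes were tested. Over 12 arrays 0 of 7 kept the organs apart, and over 10 arrays 3 were higher in roots and 1 lower, beside 7.04% and 7.63% of all probe sets. MT1C, a metallothionein that binds metals, had 9.27, 10.00 and 10.70 in roots and 6.20, 7.15 and 8.38 in leaves, a difference of 2.77 ± 0.44. The gene AT3G58060 (MTP8, a manganese and iron transporter of the vacuole in A. thaliana) had 6.61, 7.46 and 8.80 in roots and 4.39, 4.63 and 6.41 in leaves, a difference of 2.62 ± 0.49. AT1G16310 of the same MTP family was higher by 2.42 ± 0.30 and AT1G79520 lower by -1.34 ± 0.27. The zinc transporter genes ZIP9 and ZIP6 overlapped, at -0.16 ± 0.38 and 0.48 ± 0.32.

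Among 3 iron genes, AT3G13610 (F6H1, which makes the iron-mobilising coumarin scopoletin in A. thaliana roots) was higher in roots, with a difference of 5.48 ± 0.88 over the 10 arrays. Its levels on root arrays 20, 21, 22, 23 and 3 were 10.14, 10.45, 5.25, 12.00 and 9.93, against 4.34, 4.22, 4.32, 4.26 and 4.41 on leaf arrays 4, 6, 7, 8 and 9. Array 22 lay within about 1 unit of the leaves, while arrays 24 and 5 held 10.16 and 10.96. The leaf array 5 was therefore higher for this root gene than 4 of the 5 root arrays other than 24.

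Root arrays differed among themselves more than leaf arrays at the upper end. The SD over the 5 root arrays had a median of 0.41 over 9532 named genes, and over the 5 leaf arrays 0.37, and 338 genes had an SD above 1 in roots against 233 in leaves. AT3G29970 and AT5G10040, among the most variable root genes, are known to be induced by low oxygen in A. thaliana. A list of such genes was added after some of these values were seen, and 10 of its genes were tested.

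All 10 were lower on root arrays 20 and 23 than on root arrays 21, 22 and 3, as were 22.4% of all named genes. AT5G10040 had 5.68 and 6.84 on arrays 20 and 23, and 10.28, 10.13 and 10.10 on arrays 21, 22 and 3. AT3G29970 had 5.74 and 6.97, against 10.96, 10.98 and 12.02 on the same arrays. PDC2, a pyruvate decarboxylase of fermentation, had 8.70 and 8.15, against 10.89, 10.11 and 10.72. Arrays 20 and 23 bear text-order number 1 at different inferred zinc levels, and what set them apart was not tested.

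In all 10 genes array 5 was the highest leaf array. For AT5G10040 the leaf arrays held 4.27 to 4.89 without array 5 and 9.47 on it. Over the 10 arrays 5 of the 10 genes were higher in roots with the organs apart, beside 7.04% of all probe sets. The list median difference was 2.97, and in A. halleri the differences of the 10 genes ran from 0.14 in PDC2 to 4.17 in AT3G29970.

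Of the 3 root hair genes tested, the expansins EXPA7 and EXPA18 were highest on arrays 20 and 23. EXPA7 had 8.25 and 8.61 there, against 5.49, 5.85 and 4.68 on arrays 21, 22 and 3. EXPA18 had 7.56 and 8.45, against 7.06, 5.64 and 6.14. The third gene, AT2G14760, was lower there, at 5.80 and 4.95, against 5.83, 6.03 and 5.89. Of all named genes 15.9% were higher on both arrays 20 and 23 than on the other 3, and whether the 2 expansins and the low-oxygen genes vary with the same property of these arrays was not tested.

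**Figure D4:**
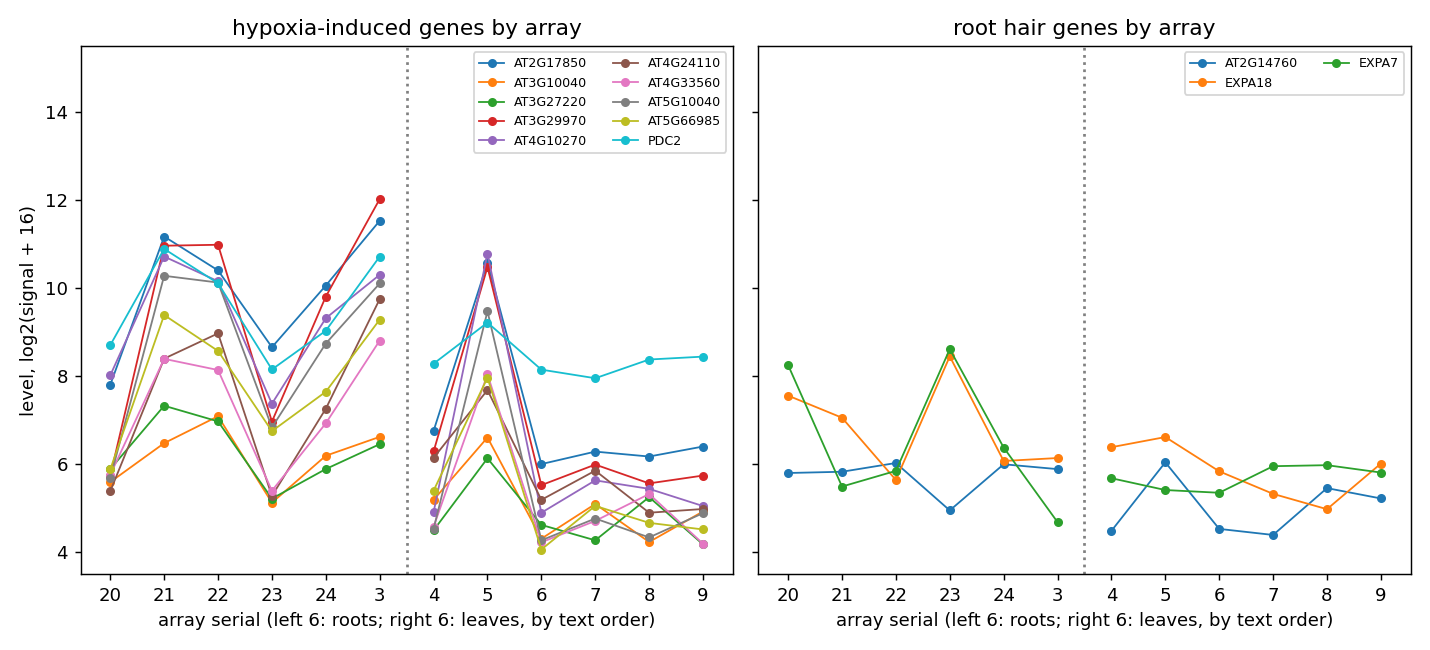
Level of 10 genes known to be induced by low oxygen (left panel) and 3 root hair genes (right panel) on each array, with root arrays left of the dotted line and leaf arrays right of it. The low-oxygen genes are lower on root arrays 20 and 23 than on root arrays 21, 22 and 3, and array 5 is the highest leaf array in each. EXPA7 and EXPA18 are highest on arrays 20 and 23.

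Leaf arrays varied most in an iron-regulated gene. AT1G47400, of the iron-deficiency peptide family IRONMAN, stood at 13.18, 10.57 and 9.78 on leaf arrays 7, 8 and 9 (25 µM zinc), against 6.22, 7.85 and 6.80 on leaf arrays 4, 5 and 6 (control). The 2 sets of 3 leaf arrays did not overlap. In roots it stood at 9.60, 7.79 and 9.16 on arrays 23, 24 and 3 (25 µM zinc), against 5.66, 7.94 and 7.48 on arrays 20, 21 and 22 (control), where array 24 overlapped with the control. It was picked for its spread, and no probe set passed the test for zinc below.

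Whether roots and leaves differed by another amount under 25 µM zinc than in control plants was tested with limma on the 12 arrays. The interaction called 0 of 17107 probe sets (0%) after Benjamini-Hochberg adjustment, with 287 at an unadjusted p under 0.05, and the zinc term of the organ comparison called 0 (0%), with 449 at an unadjusted p under 0.05. A limma fit with the text-order number as a block within each organ, chosen after seeing the data, had 818 and 978 at that level, also with 0 calls. With 3 arrays a group, 0 calls do not show that the organ difference was equal at both zinc levels. The smallest interaction p-values belonged to AT1G79540, AT5G65685 and EXPA9, all with an adjusted p of 1.0 in limma.

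AT5G65685 stood at 4.49, 4.71 and 4.65 in zinc roots and 4.45, 4.47 and 5.27 in control roots, and at 6.76, 7.06 and 6.76 in zinc leaves against 4.75, 4.95 and 5.40 in control leaves. Its organ difference was -2.24 under zinc and -0.31 in control. EXPA9, an expansin, had an organ difference of -1.06 under zinc and 0.85 in control, and FYD -0.23 under zinc and 2.09 in control. The other 6 of the 10 genes with the smallest p, besides AT1G79540, were AT5G43800, AT3G42100, AT1G06260, AT2G20670, AT5G54370 and CDC27a, and none of the 10 passed the adjusted threshold.

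The organ difference was much alike in both species. Across 17107 probe sets the difference in A. petraea correlated with that in A. halleri, from the other 12 arrays, at r = 0.84 both with and without arrays 24 and 5, a description across probe sets that share one array design. Of the 2511 probe sets apart over the 10 arrays, 97.3% had the same sign in A. halleri, against 80.5% of all. The organ labels of both species come from the same order, adopted for its match with organ markers, so part of this likeness is built in.

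The test of the difference between species found where they departed. limma called 97 of 17107 probe sets (0.567%) for an organ difference that differed between A. petraea and A. halleri, 59 with a higher value in A. petraea and 38 with a lower one, and 42 of the 97 were named genes. The sign was opposite in the species for 47. Without arrays 24 and 5 limma called 168 (0.982%), of which 82 were among the 97. Both are A. petraea arrays, so leaving them out changed the estimate on the A. petraea side only. It also changed the variance that the fit pools over both species, and with it every p-value. The count also moved with the fit, to 643 (317 higher and 326 lower) with array weights and to 162 (87 and 75) with the replicate number as a block. Same-numbered arrays were mostly alike within an organ, and the main test took them as independent, so its p-values can be too small. The block shared its effect across organs and species and may not remove this. Over 12 arrays the larger organ difference was in A. petraea for 16 of the 97 and in A. halleri for 81, and without arrays 24 and 5 it was in A. petraea for 94 of the 168 and in A. halleri for 74. Probes were designed on A. thaliana, and weaker binding in one species cannot be told apart from a lower transcript level there.

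Leaves made most of the difference in several of the 10 genes with the smallest p. AT5G04120 had a lowest, median and highest level of 4.58, 4.82 and 6.40 in A. petraea roots and 4.40, 4.57 and 5.17 in A. petraea leaves. In A. halleri it had 4.68, 4.88 and 5.89 in roots and 8.05, 8.89 and 9.59 in leaves. The leaves of A. halleri alone stood high, and the organ differences were 0.45 in A. petraea and -3.74 in A. halleri, 4.19 ± 0.42 apart (limma, adjusted p = 1.7e-05).

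AT3G57020, of the strictosidine synthase-like family, had medians of 5.82 in A. petraea roots and 6.90 in A. petraea leaves, against 4.79 in A. halleri roots and 10.29 in A. halleri leaves. Its organ difference was 4.26 ± 0.48 higher in A. petraea (limma, adjusted p = 5.3e-05). SUFE2, which supplies sulfur for iron-sulfur clusters, had medians of 5.43 in A. petraea roots and 4.92 in A. petraea leaves, against 4.86 in A. halleri roots and 7.49 in A. halleri leaves, a difference of 3.43 ± 0.51 between species (limma, adjusted p = 0.00226). AT3G05730, a defensin-like gene, had medians of 5.33 and 4.82 in A. petraea roots and leaves, against 5.49 and 8.67 in A. halleri roots and leaves, 3.11 ± 0.49 apart (limma, adjusted p = 0.00369). Leaf levels in A. halleri were thus high for all 4 genes, and neither organ of A. petraea reached them.

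CYP71B26, a cytochrome P450, was the reverse case. It had 4.69, 6.04 and 8.63 in A. petraea roots and 8.23, 9.37 and 9.60 in A. petraea leaves, against 4.55, 5.59 and 6.01 in A. halleri roots and 4.32, 4.70 and 5.37 in A. halleri leaves. The leaves of A. petraea stood high, with 1 root array (24) among them, and the organ differences of -2.96 and 0.70 were -3.67 ± 0.61 apart (limma, adjusted p = 0.00416). AT3G48650 had medians of 5.25 in A. petraea roots and 6.96 in A. petraea leaves, against 6.28 in A. halleri roots and 4.94 in A. halleri leaves (-2.60 ± 0.44, limma, adjusted p = 0.00477).

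AT4G35380 was higher in roots of both species, by 1.77 in A. petraea and 4.04 in A. halleri (-2.27 ± 0.37 apart, limma, adjusted p = 0.00397). The lectin gene JAL22, AT4G25020 and CSLA01, a cellulose synthase-like gene, were lower in roots of both species, at -0.66, -0.70 and -1.17 in A. petraea against -2.69, -2.56 and -3.05 in A. halleri, with limma adjusted p-values of 0.00405, 0.00414 and 0.00414. For these 4 genes A. petraea had the smaller organ difference. JAL22 was the 1 gene called among the 234 list genes tested, beside 0.567% of all probe sets, so this count says little about the lists.

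**Figure D5:**
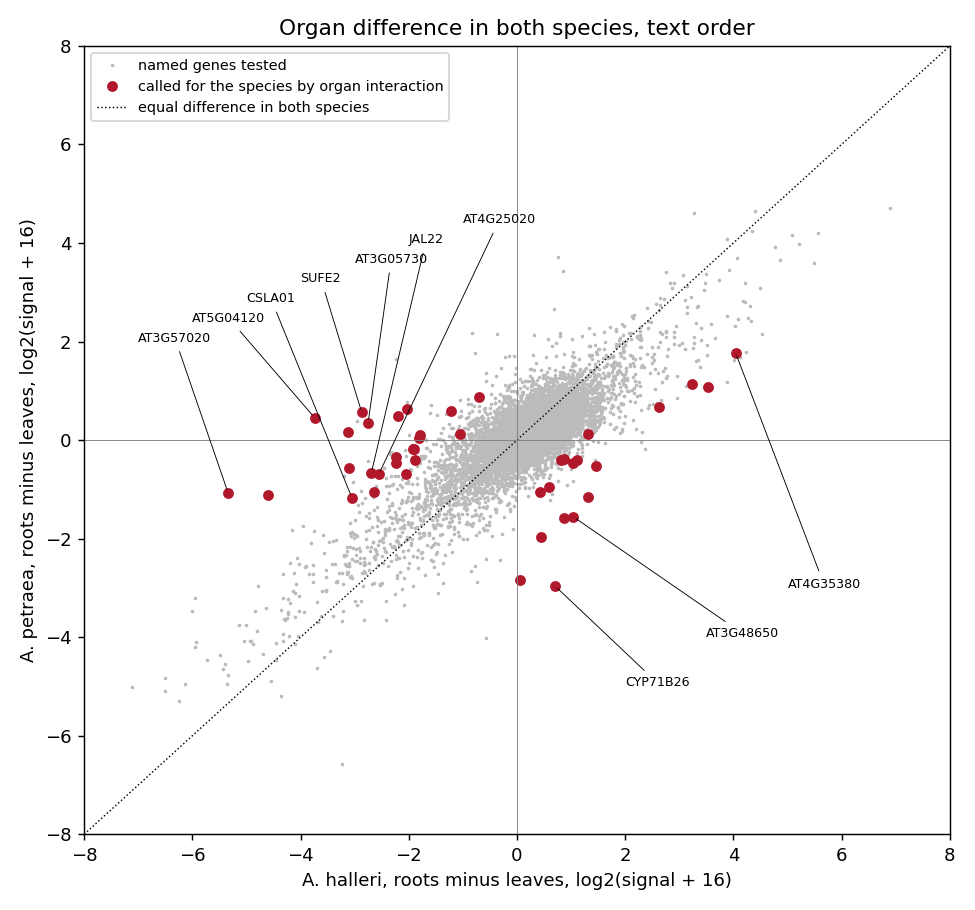
Organ difference (roots minus leaves, log2 scale) of each named gene in A. petraea, on the vertical axis, against that in A. halleri, on the horizontal axis, over all 24 arrays in text order. Red points are the 42 named genes called by limma for a difference between species, with the 10 smallest p-values labelled; AT5G04120, at 0.45 in A. petraea and -3.74 in A. halleri, is among the farthest from the dotted line of equal difference.

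Some genes high or low in A. petraea over the 10 arrays passed the test against A. halleri once arrays 24 and 5 were left out and not before. Both arrays are A. petraea and were left out for their marker levels, while all A. halleri arrays stayed in. Among these, root arrays 14 and 11 had leaf minus root marker means of -0.10 and -0.90. The genes were picked after their values were seen, so p-values without arrays 24 and 5 are not a fair test of a species difference. The protease inhibitor relative AT1G72290 had an organ difference of -7.81 in A. petraea over these arrays and -3.23 in A. halleri (limma, adjusted p = 8.1e-06 without arrays 24 and 5 and 0.289 with them). AT2G44380 had 4.58 in A. petraea and 0.76 in A. halleri (limma, adjusted p = 7.3e-05 without and 0.0947 with). The metal transporter gene AT3G58060 had 2.62 in A. petraea and -0.84 in A. halleri (limma, adjusted p = 0.0182 without and 0.0531 with). AT1G68600, the malate transporter relative, passed it either way, at -3.47 over the 10 arrays in A. petraea and 0.05 in A. halleri (limma, adjusted p = 1.4e-05 without and 0.00666 with).

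In A. petraea roots AT3G58060 stood at 8.80, 7.82 and 8.39 on zinc arrays 23, 24 and 3, against 6.61, 7.38 and 7.46 on control arrays 20, 21 and 22. The zinc and control roots did not overlap, but the gene was picked after its values were seen and the zinc term called 0 probe sets. ZIP9 had organ differences of -0.19 in A. petraea and 2.37 in A. halleri, which did not pass the threshold (limma, adjusted p = 0.0826). MT1C, at 2.15 in A. petraea and -0.37 in A. halleri, did not pass it either (limma, adjusted p = 0.338).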

How the data were processed

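Total RNA was hybridised to ATH1 arrays, whose probe sets were designed on A. thaliana. Per the submitters' processing notes, the deposited values came from MAS5, and each is a linear-scale intensity of a probe set. No source used here gives the MAS5 version or its settings. On each array the mean signal, with the extreme 2% at both ends removed, was 100.005 to 100.011 (12 arrays), medians were 43 to 68.75, and 20.6% to 27.8% of signals were under 16. The number of arrays limits the precision.

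Signals were taken as log2(signal + 16), a pseudocount that understates changes of dim genes. The lowest 25% of 22810 probe sets by mean over 24 arrays were left out, which kept 17107. The deposited platform annotation, which can be old, gave 1 gene to 13513 probe sets, several to 503 and none here to 8794. Genes with several probe sets were represented by the brightest, which left 9532 named genes. Of 66 pairs of arrays, 0 shared most values.

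The groups follow the text order of the serials, an inference from organ markers and not a statement of the labels. limma 3.58.1 in R 4.3.3 was fitted with organ and zinc (9 residual degrees of freedom), with 4 organ-by-zinc groups (8) and with 8 groups on 24 arrays (16), using eBayes with trend and robust settings, two-sided tests and Benjamini-Hochberg adjustment over all probe sets at 0.05. The organ term gave differences and standard errors only. The script was tested on simulated data. Genes named were the 12 highest and 12 lowest with no overlap between organs, the 4 largest of each list that bear on the result, and the 10 smallest p-values of each interaction; genes named for their spread, the largest differences over 10 arrays and those in the paragraph on arrays 24 and 5 left out were chosen after their values were seen. The members and the 32 gene lists (651 genes, 234 tested, 29 lists with a tested gene) were chosen with earlier results of these data known. The wax, aquaporin and nutrient transport lists had 0 genes tested. No genome or sequence table was used, and no sequences are shown.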

Additional observations from a re-analysis of the deposited data

Results flagged for a closer look

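In 16 of 60 groups of 6 arrays, over 30 genes, 1 array stood apart from the other 5 by Dixon's test at the 95% level. This level flags about 1 group in 20 by chance, but only for genes picked without regard to these arrays. The 30 genes were the markers of the rule and genes ranked on the organ contrast. The flags on arrays 24 and 5 therefore add no separate evidence. Array 24 was that array in 9 groups, array 5 in 6 and array 4 in 1. Among roots, array 24 was high for AT1G32220 (7.40), AT2G39920 (7.56), AT5G35170 (7.16), TAPX (8.31), AT5G11420 (6.65), PORB (7.74), AT1G49750 (10.70), SBPASE (10.02) and RCA (12.22), on the log2(signal + 16) scale. Among leaves, array 5 was high for PYK10 (9.13), AT5G10580 (9.76), AT3G62040 (7.31), AT4G30320 (7.86) and AT2G44010 (6.47) and low for AT4G30650 (9.15), and array 4 was high for TAPX (10.00).

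The organ difference of A. petraea minus that of A. halleri passed the limma test in each of the 10 named genes with the smallest p. It was higher in A. petraea by 4.19 in AT5G04120, 4.26 in AT3G57020, 3.43 in SUFE2, 3.11 in AT3G05730, 2.03 in JAL22, 1.86 in AT4G25020 and 1.88 in CSLA01. It was lower, at -2.27 in AT4G35380, -3.67 in CYP71B26 and -2.60 in AT3G48650.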

How the results depend on the processing

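The number of probe sets that kept the organs apart at 2-fold or more, higher and lower in roots, was 193 and 165 over 12 arrays. It was 79 and 103 with a pseudocount of 64, 1205 and 1306 without arrays 24 and 5, 1199 and 817 on zinc arrays alone, 894 and 1229 on control arrays alone, and 14 and 25 under the printed labels. The zinc-only and control-only counts rest on 3 arrays an organ. Fewer arrays overlap less readily, so these counts are not like those over 12 arrays. Leaving out 1 array in turn gave 200 to 865 higher and 169 to 1108 lower. Without array 5 they were 865 and 614, and without array 24 584 and 1108. The species by organ count of 97 became 168 without arrays 24 and 5, 643 with array weights, 162 with the replicate block, 282 with the replicate block without arrays 24 and 5 (an alternative chosen after seeing the data), and 0 under the printed labels. It was 69 to 151 leaving out 1 array, the highest without array 24. The 10 genes named for that test passed in every alternative but the printed labels. Same-numbered arrays deviated together across zinc levels in leaves (r = 0.57, 0.28 and 0.47) but not in every root pair (0.51, -0.05 with array 24, and 0.31). Across organs r was -0.06 to 0.21, so the numbers were not taken to pair the organs. Of 24 arrays, 21 were nearest to an array of their own text-order number, with the title of serial 3 read as replicate 3. The main zinc tests left this likeness within an organ out of the fit, so their p-values can be too large. The species by organ p-values and the standard errors of the organ difference also left this likeness out, and they can be too small. The organ by zinc interaction and the zinc term stayed at 0 calls in every alternative. Under the printed labels the sign turned for 34 named genes: the organ difference was -2.87 in PYK10, -2.23 in AT5G10580, -2.13 in AT1G49310, -1.16 in AT3G62040, -2.06 in AT4G30320, -1.50 in AT4G16260, -1.33 in AT2G44010, -0.77 in ARPN, -1.92 in AT3G59480, -1.38 in FACT, -1.16 in AT4G14060, -1.37 in AT5G02580, 0.82 in psaJ, 1.66 in AT1G32220, 1.02 in AT2G39920, 1.66 in AT4G30650, 1.02 in AT5G35170, 0.67 in TAPX, 0.82 in AT5G11420, 1.62 in PORB, 0.16 in AT1G27030, 1.77 in AT1G49750 and 1.47 in AT1G54020. The organ by zinc value was 0.25 in AT1G79540, 1.52 in AT5G65685, -0.90 in AT5G43800, -0.15 in AT3G42100, -1.37 in AT1G06260, 0.17 in FYD, -0.18 in AT2G20670, 0.70 in AT5G54370 and -1.0 in CDC27a, and the species by organ value was -1.40 in AT4G25020 and 1.14 in AT3G48650. These follow from moving arrays between groups. The other 8 species by organ genes kept their sign there and lost their call. Of the remaining values of named genes, 944 stayed on their side of the test or moved by under 1 SD, and 15 moved by more than 1 SD with no turn of sign. The median organ difference of all probe sets was 0.19 as deposited and 0.09 after quantile normalization. Low signals limit dim genes.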
